A study of Mus musculus with 12 samples.

Results

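Metformin was compared with vehicle over both Dnmt3a genotypes, as 6 metformin (MET) libraries against 6 vehicle (VEH) libraries. These are all 12 libraries of the series, and they were taken by the treatment in their labels, with genotype as a covariate. RNA was sequenced in bulk from Lin-cKit+ cells, the hematopoietic stem and progenitor cells (HSPCs) of mouse bone marrow, which were sorted fresh and not cultured. Wild-type (WT) mice were Dnmt3a+/+ and mutant (RH) mice Dnmt3afl-R878H/+. Both were C57BL/6 animals crossed with Mx1-cre mice, whose Cre is driven by an interferon-inducible promoter, so the wild-type controls carry the same transgene. There were 3 libraries in each of the 4 groups, RH MET, RH VEH, WT MET and WT VEH. The mice were part of a competition experiment, were sampled after 1 month of treatment, and numbered 2 per treatment group. The labels do not say which animal a library came from, and with 3 libraries per group some may share an animal. The tests and SDs below therefore measure library-to-library spread, some of which may be technical, and not spread between animals. Which host or competitor cells the sorted RNA still held is not given here.

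Metformin is an antidiabetic biguanide that inhibits respiratory complex I and can activate AMPK, the kinase that senses falling energy charge and restrains mTORC1, fatty acid synthesis and cholesterol synthesis. It enters cells through organic cation transporters of the Slc22 and Slc29 families. HSPCs rely on low mitochondrial activity to stay quiescent and raise it when they divide or mature, and Dnmt3a, a de novo DNA methyltransferase, limits their self-renewal. The series set out to describe how metformin acts on HSPCs of both genotypes. The comparison here asks which genes differ with metformin over both genotypes.

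The 2 smallest p-values of the comparison belonged to transcripts that carry microRNAs, so the microRNAs they encode are given here as reference sequences from RefSeq (build GRCm38.p6), 5′ to 3′, with the seed (bases 2 to 8) in capitals. The first 3 come from the Mir23a cluster on chromosome 8.
miR-23a-3p: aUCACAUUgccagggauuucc
miR-27a-3p: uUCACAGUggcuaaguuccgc
miR-24-3p: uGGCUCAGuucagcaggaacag
The next 6 lie in exon 2 of Mir17hg, the host transcript of the miR-17-92 cluster on chromosome 14. miR-17-5p and miR-20a-5p share a seed, as do miR-19a-3p and miR-19b-3p.
miR-17-5p: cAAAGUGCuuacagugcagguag
miR-18a-5p: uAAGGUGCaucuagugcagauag
miR-19a-3p: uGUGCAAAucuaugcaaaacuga
miR-20a-5p: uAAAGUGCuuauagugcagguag
miR-19b-3p: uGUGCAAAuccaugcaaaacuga
miR-92a-3p: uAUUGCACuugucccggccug
The last lie in an exon of F630028O10Rik on chromosome X and in an intron of Hnrnpk on chromosome 13.
miR-223-3p: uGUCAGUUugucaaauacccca
miR-7a-5p: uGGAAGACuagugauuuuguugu
The 11 microRNAs hold 9 different seeds. The libraries were made from long RNA, so counts over these loci report hairpins, precursors and host transcripts, and say nothing of the mature microRNAs.

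Total counts were 13359583 to 21938003 per library. WT MET 2 and RH VEH 2 stood apart, with 33.3% and 40.8% of counts from the mitochondrial genome against 1.57% to 4.32% in the other 10 libraries; 1 is in each treatment arm and each genotype. The share was 7.95% ± 12.4 (SD, n = 6) in MET and 8.91% ± 15.7 (SD, n = 6) in VEH, with an exact two-sided permutation p of 0.865 (labels permuted within genotype, 0.005 the smallest possible). Without these 2 libraries it was 2.88% ± 0.865 and 2.52% ± 0.845. The 4 libraries of column number 3, 1 in each group, also stood apart: Col1a1, a collagen gene of stromal cells, was at 254 to 460 CPM in them and at 12.2 to 120 CPM in the other 8. Kit stood at 119 to 207 CPM (counts scaled to library size with TMM normalization) in every library. Of cells the sort removes, Cd3e of T cells stood at 0.382 to 3.09 CPM and Ly6g of neutrophils at 1.81 to 14.3 CPM. Other genes of maturing blood cells were not low. The globin gene Hbb-bt stood at 218 to 835 CPM. Late neutrophil genes summed to 790 to 6109 CPM, and immunoglobulin segments to 3168 to 5605 CPM. Ddx3y, on the Y chromosome, had 0 counts in all 12 libraries.

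No gene passed the threshold for metformin against vehicle. At a Benjamini-Hochberg adjusted p under 0.05, edgeR's quasi-likelihood test with genotype and library set (whether a library is also in a smaller deposited table) as covariates called 0 of 15003 genes (0%), and the smallest adjusted p was 0.9998. At an unadjusted p under 0.05 there were 228 genes (1.52%), 116 higher (0.773%) and 112 lower (0.747%) in MET, where evenly spread p-values would give 750.15. Genes with every MET library above every VEH library numbered 9 (0.06%), and 1 (0.00667%) had every MET library below. Other tools on the same 12 libraries called 0 genes (DESeq2; limma voom) or 4 (limma voom with quality weights, which gives noisy libraries less weight). These 4 were Id1 (log2 fold change 1.19, adjusted p = 0.0306), Nr4a1 (−0.89, adjusted p = 0.0336), Sik1 (−0.80, adjusted p = 0.0408) and Abcc3 (−1.43, adjusted p = 0.0421). Without WT MET 2 and RH VEH 2, edgeR called 0 genes, with 510 at an unadjusted p under 0.05. Without the 4 libraries of number 3 it also called 0 genes, with 773 at that p. With WT MET 2 and RH VEH 2 left out, DESeq2 called 7 of 15325 genes. Among these DESeq2 calls were Nr4a1 (−0.82, adjusted p = 0.000590), Mir17hg (0.60, adjusted p = 0.00360), the Notch ligand gene Jag2 (−0.90, adjusted p = 0.0124), the stress sensor Sesn3 (−0.63, adjusted p = 0.0266) and Mycn (0.64, adjusted p = 0.0279). The other 2 were the immunoglobulin segments Igkv4-50 and Iglj1. Abcc3, Jag2 and these segments are named here because these tests called them. Genes below are therefore described by their values, and log2 fold changes are for MET against VEH. The SE was derived as the size of the edgeR log2 fold change over the square root of its quasi-likelihood F statistic.

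Counts over the Mir23a cluster gave the smallest p of all genes tested. Mir23a (chromosome 8, 84208518 to 84208592, plus strand) stood at 0.497, 0.637 and 1.00 CPM in WT VEH, 2.16, 1.34 and 1.64 in WT MET, 0.824, 0.681 and 0.973 in RH VEH, and 2.70, 3.11 and 1.44 in RH MET. Every MET library was above every VEH library. Its log2 fold change was 1.36 ± 0.302 (unadjusted p = 0.000595), with 1.30 in WT and 1.43 in RH. These levels rest on 6 to 57 counts per library. Mir27a, the next hairpin downstream, showed the same separation, at 0.371 to 1.26 CPM in MET and 0 to 0.300 CPM in VEH (2.07 ± 0.563, 0 to 23 counts). Mir24-2, the third hairpin, had 0 to 4 counts and was not tested. Gm26532, a long noncoding RNA gene that starts at the end of the Mir24-2 hairpin on the same strand (84208920 to 84209609), had 76 to 307 counts. It stood at 8.51 to 17.9 CPM (median 12.7) in MET and at 4.46 to 9.60 CPM (median 7.32) in VEH (0.90 ± 0.246), with some overlap between the arms. The cluster's microRNAs are known for restraining B lymphoid development in progenitors.

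Mir17hg, the host of the oncogenic miR-17-92 cluster and a target of Myc, had the second smallest p of all genes tested. It stood at 19.1, 18.5 and 17.7 CPM in WT VEH, 27.1, 20.1 and 26.1 in WT MET, 21.0, 21.4 and 18.1 in RH VEH, and 32.9, 36.6 and 23.4 in RH MET. Within each genotype every MET library was above every VEH library. Across genotypes WT MET 2, at 20.1 CPM, lay below RH VEH 1 and RH VEH 2, and the other 5 MET libraries lay above all VEH libraries. The log2 fold change was 0.50 ± 0.114 (unadjusted p = 0.000706), and 0.48 in WT and 0.52 in RH. It kept a value of 0.47 to 0.58 when each library was left out in turn. The 6 hairpins have gene entries of their own, which held 0 counts.

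2 more loci of this kind had higher levels in MET. F630028O10Rik, the host transcript of Mir223, a microRNA of granulocytes and monocytes, stood at 2.39 to 34.9 CPM (median 23.3) in MET and at 3.70 to 16.5 CPM (median 6.35) in VEH. WT MET 2 was the lowest of all 12, and the other 5 MET libraries were above all VEH libraries. Its log2 fold change was 1.21 ± 0.564 (unadjusted p = 0.0567), or 1.41 without WT MET 2 and RH VEH 2, and it was the 1 gene called when the first library set was fitted alone (2.15, adjusted p = 0.0201, edgeR). Late neutrophil genes had a median log2 fold change of 1.24 in RH and −0.62 in WT, and their part in this value was not tested. The gene is annotated as antisense, and the sources used here do not say whether counting used strand. Mir7-1 (chromosome 13, 58392779 to 58392886, minus strand) lies in an intron of Hnrnpk, which encodes an RNA-binding protein. It stood at 1.15 to 2.86 CPM in MET and at 0.227 to 1.62 CPM in VEH (1.11 ± 0.304, unadjusted p = 0.00294, 2 to 49 counts), while Hnrnpk stood at 781 to 991 CPM and 779 to 942 CPM (0.03 ± 0.0723). Among the 18 tested genes of the annotation's microRNA class, which includes snoRNA-like entries such as Snord43, 13 had a positive log2 fold change and 5 a negative one. Their median was 0.35 against −0.03 over all genes. 3 (Mir23a, Mir27a and Mir7-1) were higher at an unadjusted p under 0.05 (0.773% of all genes were). Mir23a and Mir27a are neighbouring hairpins of 1 cluster, and all 3 rest on few counts. Apart from Mir17hg, the genes of these loci, and Snord43, were chosen after their values were seen.

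**Figure D1:**
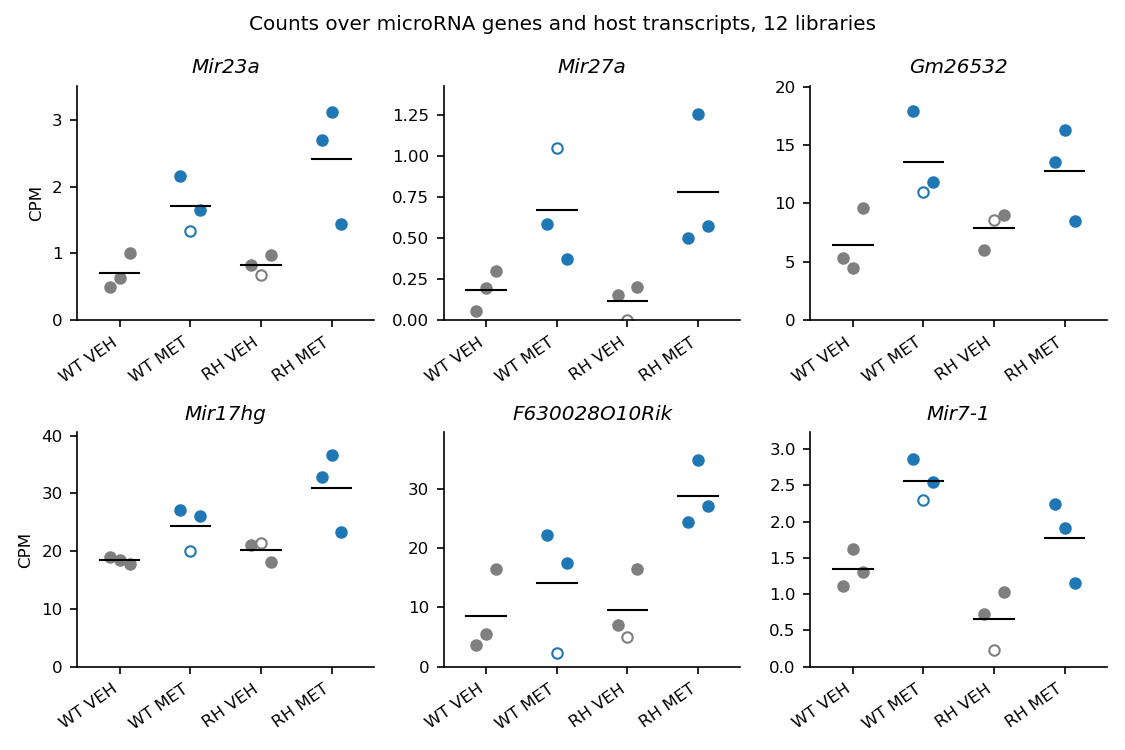
TMM-normalised CPM (y axis, linear, from 0) of 6 microRNA genes and host transcripts in each library, by group (x axis; grey VEH, blue MET, line at the group mean, open circles WT MET 2 and RH VEH 2). For Mir23a the 6 MET libraries lie at 1.34 to 3.11 CPM, all above the VEH libraries; for F630028O10Rik the open WT MET 2 circle at 2.39 CPM is below them.

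12 genes with positive and 12 with negative values lead the comparison under a rule that asks for the same sign in both genotypes and in both library sets, and a mean of at least 1 log2 CPM. The rule makes their agreement across genotypes and sets a condition of choice, not a finding. Id1, an inhibitor of basic helix-loop-helix factors and a target of BMP signalling, had the largest positive value. It stood at 7.84 to 11.6 CPM (median 8.89) in MET and at 2.32 to 7.26 CPM (median 4.79) in VEH, with no overlap (1.01 ± 0.255, unadjusted p = 0.00171). WT VEH 1 and WT VEH 2 were the lowest, at 2.32 and 2.84 CPM. Sat1, the spermidine/spermine acetyltransferase that starts polyamine breakdown, stood at 86.6 to 105 CPM in MET and at 59.9 to 85.0 CPM in VEH, again with no overlap (0.39 ± 0.0976, unadjusted p = 0.00160). The gap between its arms was small beside their ranges.

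Rgs1, which shortens G protein signalling from chemokine receptors, stood at 153 to 287 CPM (median 226) in MET and at 94.7 to 191 CPM (median 150) in VEH (0.55 ± 0.156). Its value was 0.90 in WT, where all 3 MET libraries were above all VEH libraries, and 0.20 in RH, where they were not; the difference between genotypes had an unadjusted p of 0.0201 and an adjusted p of 0.643 (edgeR). Il6, a cytokine that drives myeloid output, stood at 12.8 to 27.4 CPM in MET and at 9.78 to 16.7 CPM in VEH (0.61 ± 0.193), and in RH every MET library was above every VEH library. P2ry1, a receptor for extracellular ADP, had no overlap between the arms, at 26.3 to 30.1 CPM in MET and 20.4 to 25.3 CPM in VEH (0.28 ± 0.0961). Clec2d, a lectin-like ligand of an NK cell receptor, stood at 11.97 to 26.4 CPM in MET and at 7.98 to 14.1 CPM in VEH (0.51 ± 0.176), with WT MET 3 far above the rest of its arm. The other 6 leading genes with positive values were the ubiquitin ligase gene G2e3 (0.32), Pkd2 (0.68), which encodes a calcium-permeable channel, the tetraspan gene Lhfpl2 (0.30), and the zinc finger genes Zfp715 (0.38) and Zfp160 (0.36), beside Mir17hg. Arms without overlap were also seen for Bbs4 (0.42 ± 0.175), a gene of the cilium's BBSome, and Trmt10a (0.27 ± 0.131), a tRNA methyltransferase. The 1 gene with all MET libraries below all VEH libraries was Tmem14a, at 1.05 to 1.81 CPM against 1.93 to 2.82 CPM (−0.45 ± 0.218).

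**Figure D2:**
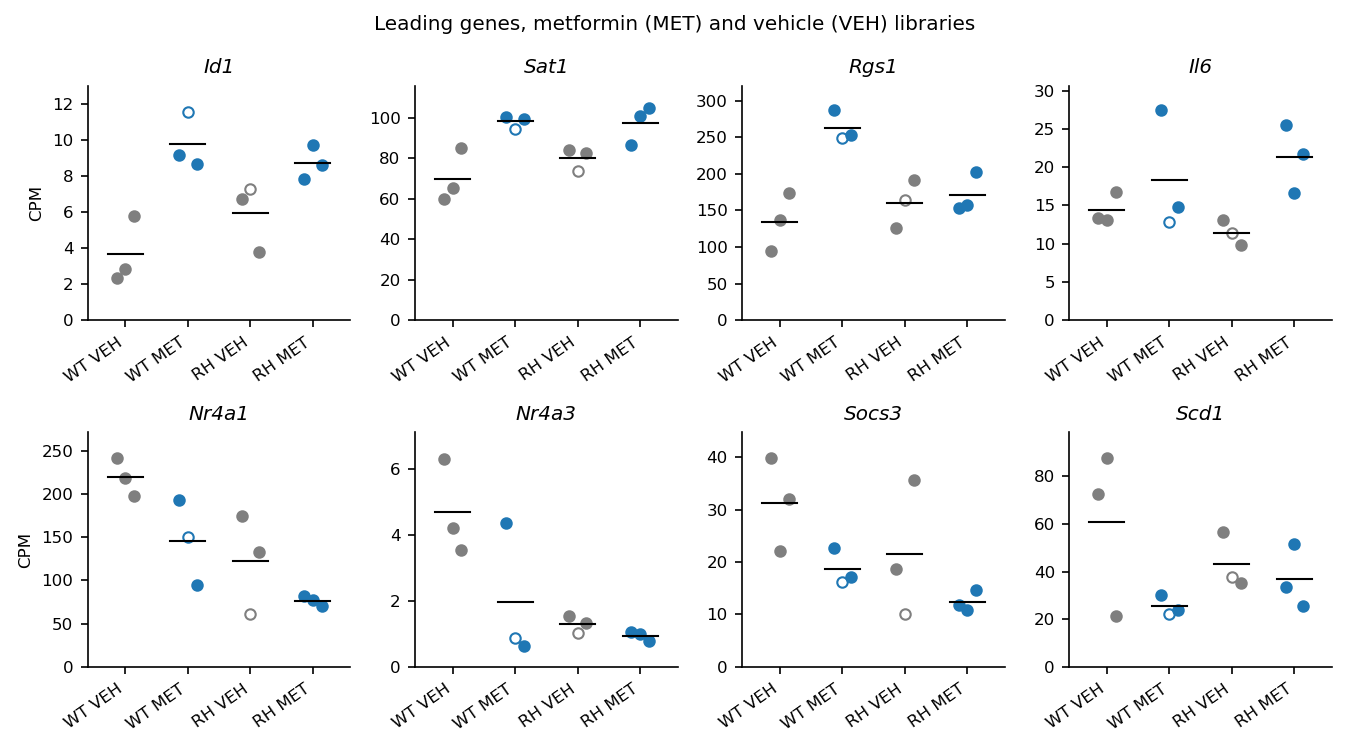
TMM-normalised CPM (y axis, linear, from 0) of 8 leading genes in each library, by group (x axis; grey VEH, blue MET, line at the group mean, open circles WT MET 2 and RH VEH 2). Id1 and Sat1 show no overlap between arms, Nr4a1 is highest in WT VEH (up to 242 CPM) and lowest in the open RH VEH 2 circle (60.6 CPM), and WT MET 1 stands alone in its arm for Nr4a3.

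Among the negative values, Scd1 had the smallest p and Nr4a1 the next. Nr4a1, an orphan nuclear receptor that is induced within minutes of receptor stimulation and helps to keep stem cells quiescent, stood at 242, 219 and 198 CPM in WT VEH, 193, 150 and 94.3 in WT MET, 175, 60.6 and 133 in RH VEH, and 82.3, 77.6 and 70.4 in RH MET. In WT all MET libraries were below all VEH libraries, and in RH this held but for RH VEH 2, which was the lowest of all 12. The log2 fold change was −0.63 ± 0.187 (unadjusted p = 0.00528), and −0.83 without WT MET 2 and RH VEH 2. Its paralogue Nr4a3 stood at 0.636 to 4.37 CPM (median 0.922) in MET and at 1.02 to 6.30 CPM (median 2.55) in VEH (−1.01 ± 0.334). WT MET 1, at 4.37 CPM, was the 1 MET library above 1.05 CPM. The third member, Nr4a2, stood at 10.6 to 36.7 CPM and 19.5 to 39.0 CPM (−0.28 ± 0.229, unadjusted p = 0.238). Sik1, a kinase of the AMPK family that is induced by cyclic AMP, stood at 49.7 to 106 CPM in MET and at 71.4 to 131 CPM in VEH (−0.48 ± 0.159). Socs3, the feedback inhibitor of cytokine signalling downstream of Il6, stood at 10.8 to 22.6 CPM (median 15.5) in MET and at 10.1 to 39.9 CPM (median 27.0) in VEH (−0.77 ± 0.256); RH VEH 2 was the lowest of all. Spry2, a feedback inhibitor of receptor tyrosine kinases, had a value of −0.42 ± 0.128, and the activation marker Cd83 one of −0.69 ± 0.221. Without the 4 libraries of number 3, Sik1 had a value of −0.18 and Socs3 one of −0.49.

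Cyclic AMP response elements are a known input to the Nr4a and Sik1 genes, and the 250 bases before the annotated start are shown for the 2 leading Nr4a genes, 5′ to 3′ on the gene's strand. Capitals mark each half-site, TGACG or its reverse complement CGTCA. The full element TGACGTCA, which holds both, was searched too. Sequences and starts are from RefSeq, build GRCm38.p6.
Nr4a1, chr15:101266596-101266845, plus strand: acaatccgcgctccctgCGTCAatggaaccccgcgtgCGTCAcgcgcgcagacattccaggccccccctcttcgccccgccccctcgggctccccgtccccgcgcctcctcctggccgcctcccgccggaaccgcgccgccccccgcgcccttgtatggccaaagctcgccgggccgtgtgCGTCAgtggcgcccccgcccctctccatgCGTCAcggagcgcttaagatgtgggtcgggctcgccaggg
Nr4a3, chr4:48045055-48045304, plus strand: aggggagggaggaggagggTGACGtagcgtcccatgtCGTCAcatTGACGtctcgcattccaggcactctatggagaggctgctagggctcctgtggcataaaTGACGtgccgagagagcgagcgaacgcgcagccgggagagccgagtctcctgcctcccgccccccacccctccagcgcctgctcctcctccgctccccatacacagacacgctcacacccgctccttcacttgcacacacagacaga
Each holds 4 half-sites, as does the same window of Nr4a2, and none holds the full element. Of 32851 such windows in the table, 17.8% hold at least 1 half-site, 0.137% (45) hold 4 or more and 1.55% hold the full element. Of the 24 leading genes 17 have an entry, 5 of them with a half-site and 2, Nr4a1 and Nr4a3, with 4. These counts are per gene, by its window with the most half-sites, while the shares above are per window. The 7 genes without an entry include Sik1. A match is a description of these letters and not evidence of binding.

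The wider list of immediate early genes, which cells induce within minutes of stimulation or handling, held 29 of 35 tested members with a negative value (82.9%, against 58.2% of all genes tested), with a median of −0.17 against −0.03. 5 had an unadjusted p under 0.05, all lower: Nr4a1, Nr4a3, Csrnp1 (−0.47 ± 0.172), Dusp5 (−0.41 ± 0.164) and Junb (−0.30 ± 0.127). The background rate of such genes was 0.747%. The genes of highest level did not share this, with Fos at 855 to 1384 CPM in MET and 643 to 1370 CPM in VEH (−0.00 ± 0.134), and Jun at −0.05 ± 0.129. Egr1 stood at 322 to 891 CPM (median 480) in MET and at 414 to 766 CPM (median 671) in VEH (−0.21 ± 0.221). By genotype the list's median was −0.0017 in WT and −0.30 in RH. It was −0.21 without WT MET 2 and RH VEH 2, and 0.03 without the 4 libraries of number 3, so its sign rests on those libraries. Earlier results of these data had already described these genes, so the list's direction here is not independent evidence. Csrnp1, Dusp5, Junb, Fos, Jun, Egr1 and Nr4a2 here, and Txk, Rag1, Igkc and S100a8 among the cell type lists, are members named after their values were seen.

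Genes of 2 stearoyl-CoA desaturases were among the leading negative values. Scd1, which makes monounsaturated fatty acids under the control of Srebp1 and is restrained by AMPK, stood at 22.3 to 51.8 CPM (median 27.8) in MET and at 21.4 to 87.9 CPM (median 47.3) in VEH (−0.66 ± 0.190, unadjusted p = 0.00422). The arms overlapped, since WT VEH 3, at 21.4 CPM, was the lowest of all. Scd2 stood at 75.4 to 165 CPM (median 108) and 97.7 to 221 CPM (median 140) (−0.43 ± 0.14). Of the 13 tested genes of fatty acid synthesis 2, Scd1 and Scd2, were lower at an unadjusted p under 0.05 (0.747% of all genes were). 11 of the 13 had negative values, and the median was −0.13. It was −0.37 in WT and 0.12 in RH. Cholesterol synthesis had 14 of 24 members positive, a median of 0.03 and no member at that p.

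**Figure D3:**
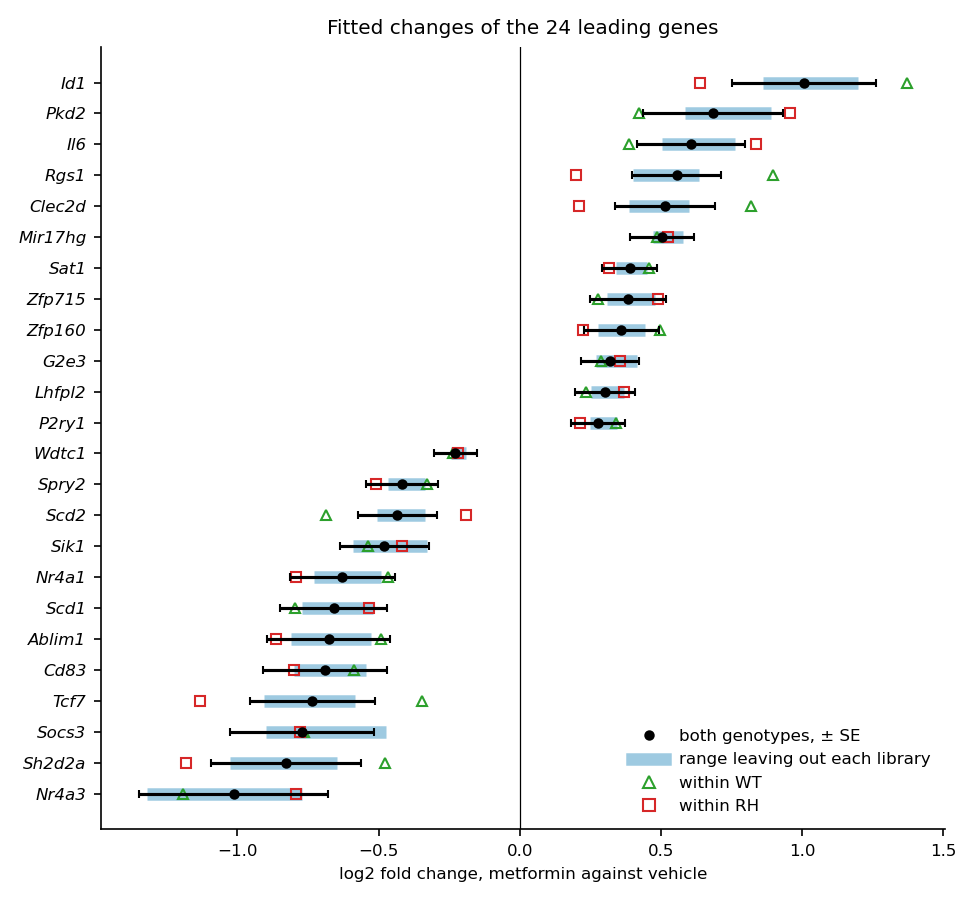
Fitted log2 fold change of the 24 leading genes (x axis; black, both genotypes with SE), the range over fits that leave out 1 library at a time (blue bar) and the values within WT (green triangle) and RH (red square). Every marker of a gene lies on 1 side of 0, as the rule for these genes asks; Id1 runs from 0.64 in RH to 1.37 in WT and Tcf7 from −1.13 in RH to −0.35 in WT.

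The direct targets and pathways of metformin showed small values. Of 21 tested AMPK subunits and kinases 8 were positive and 13 negative, with a median of −0.04, a range of −0.59 to 0.17 and no member at an unadjusted p under 0.05. Prkaa1, the main catalytic subunit, stood at 73.9 to 103 CPM in MET and at 76.5 to 97.6 CPM in VEH (0.03 ± 0.0869). Stk11, which encodes the AMPK-activating kinase LKB1, had a value of −0.09 ± 0.147. The mTORC1 list had a median of −0.04 over 32 genes. Within it Ddit4, an mTORC1 inhibitor induced by stress, stood at 28 to 35.5 CPM and 20.1 to 31.7 CPM (0.20 ± 0.112), and Sesn3 at 5.69 to 9.06 CPM and 3.97 to 14.3 CPM (−0.45 ± 0.243). These are transcript levels and do not report kinase activity. Complex I subunits had 30 of 37 members negative with a median of −0.08, complexes II to V 34 of 38 with −0.07, and the TCA cycle 18 of 23 with −0.06. No member of these 3 lists had an unadjusted p under 0.05. The complex I median was 0.20 in WT and −0.35 in RH. Among the transporters, Slc22a3, an organic cation transporter gene, stood at 27.2 to 43.1 CPM in MET and 27.0 to 58.5 CPM in VEH (−0.23 ± 0.115), while Slc29a4 and Slc47a1 reached at most 0.247 CPM and were not tested. Gdf15, a circulating marker of metformin exposure, stood at 2.15 to 4.03 CPM and 1.47 to 3.84 CPM (−0.11 ± 0.228).

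Genes of methyl group supply and DNA methylation showed small values. Mat2a, which makes S-adenosylmethionine, stood at 234 to 324 CPM (median 254) in MET and at 186 to 293 CPM (median 217) in VEH (0.24 ± 0.0940, unadjusted p = 0.0257), and it was the 1 of 27 methionine and folate cycle genes at that threshold. Dnmt3a stood at 40.0 to 56.5 CPM and 39.9 to 60.6 CPM (0.02 ± 0.119). Uhrf1, which guides Dnmt1 to replicating DNA, stood at 432 to 483 CPM (median 470) in MET and at 443 to 617 CPM (median 547) in VEH (−0.20 ± 0.0820), the 1 of 18 DNA methylation genes under an unadjusted p of 0.05. Uhrf1 is also an S phase gene, and 33 of 36 S phase genes had negative values (91.7%, against 58.2% of all genes tested; median −0.10). 3 of them, Uhrf1, Mcm3 and Lig1, were at that p, against 0.747% of all genes. The S phase median was −0.20 in library set 1 and 0.03 in set 2. Mki67, a marker of cycling cells, had a value of −0.25 ± 0.121, and 24 of 30 mitosis genes were negative (median −0.08). The MYC network, with a median of −0.07 over 17 genes, held Mir17hg and Mycn, which stood at 8.80 to 22.0 CPM in MET and at 5.58 to 18.5 CPM in VEH (0.58 ± 0.267, unadjusted p = 0.0490).

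Lists of stress responses had medians near that of all genes. The ATF4 list had 17 of 28 members positive (median 0.02) and its 1 gene at an unadjusted p under 0.05 was negative, Ppp1r15a, a phosphatase subunit that ends the response (−0.39 ± 0.152). Trib3, an ATF4 target, stood at 1.03 to 3.44 CPM and 0.907 to 3.92 CPM (0.32 ± 0.227). Interferon-stimulated genes had 26 of 35 members positive (median 0.09, against −0.03 over all genes) with none at that p. By genotype their median was −0.01 in WT (17 positive, 18 negative) and 0.15 in RH (27 positive, 8 negative). Ifit1 had a value of 0.64 ± 0.324 and Ifi44 one of 0.76 ± 0.424. Medians were −0.02 for the hypoxia list, −0.03 for p53 targets, −0.08 for NRF2 and antioxidant genes and −0.01 for heat shock genes. The NF-kB and TNF list had 19 of 30 members negative. At an unadjusted p under 0.05 it held 1 higher member, Il6 (0.773% of all genes were higher). Its 3 lower members at that p were Cd83 and the feedback inhibitors Tnfaip3 and Nfkbia (0.747% of all genes were lower).

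Some lists of other blood cells had medians farther from 0 than the pathway lists, and not all had the same sign in both genotypes. Of 38 T and NK cell genes 35 had negative values (92.1%, against 58.2% of all genes tested), with a median of −0.41. 3 were lower at an unadjusted p under 0.05 (0.747% of all genes were), the T cell factor gene Tcf7 (−0.73 ± 0.221), the IL-2 receptor gene Il2rb (−0.70 ± 0.285) and the kinase gene Txk (−0.45 ± 0.208). The median was 0.24 in WT and −0.96 in RH, and −0.63 in library set 1 and 0.08 in set 2. RH MET 1 and RH MET 2 had the lowest levels of Cd3e, at 0.649 and 0.382 CPM (13 and 7 counts). Cd3g was lowest in RH VEH 2, at 0.227 CPM, against 0.549 and 0.601 CPM in RH MET 1 and RH MET 2. Summed over the list, T and NK cell genes came to 138 to 358 CPM in MET and 201 to 350 CPM in VEH, so the arms overlapped. The leading gene Sh2d2a, an adaptor of T cells, stood at 1.35 to 5.64 CPM and 4.26 to 7.90 CPM (−0.83 ± 0.267), and Ablim1, an actin-binding protein also found in lymphocytes, at 3.20 to 12.7 CPM and 7.94 to 22.0 CPM (−0.68 ± 0.218). Fewer cells of a type and less RNA per cell cannot be told apart in bulk RNA. The part of T and NK cell content in the values of Tcf7, Sh2d2a, Ablim1 and Cd83 was not tested.

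Late neutrophil genes had 25 of 26 positive values and a median of 0.26, with none at an unadjusted p under 0.05. The genotypes had opposite signs, with a median of −0.62 in WT and 1.24 in RH. It was 0.59 in library set 1 and −0.0006 in set 2. S100a8, a calcium-binding protein of neutrophils, stood at 118 to 837 CPM (median 564) in MET and at 143 to 807 CPM (median 248) in VEH (0.59 ± 0.526). The summed level of the list was 847 to 5949 CPM in MET and 790 to 6109 CPM in VEH, a range of several-fold within each arm. Megakaryocyte genes had 25 of 28 positive values and a median of 0.25 (0.59 in WT, 0.02 in RH). Among them were Serpine2 (0.40 ± 0.200) and Cavin2 (0.34 ± 0.177). Stem cell genes had 24 of 34 positive values and a median of 0.13, or 0.04 without WT MET 2 and RH VEH 2. Their members pointed both ways, with Ly6a, which encodes Sca-1, at −0.49 ± 0.211 and Hoxb5 at 0.85 ± 0.451 on levels under 1 CPM.

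B cell genes had 20 of 23 negative values over both genotypes, 18 of 23 in WT and 16 of 23 in RH. The median was −0.26, with −0.34 in WT, −0.17 in RH, −0.37 without WT MET 2 and RH VEH 2, and −0.10 without the 4 libraries of number 3. Summed over the list, levels came to 1428 to 2171 CPM in WT MET and 2259 to 2941 CPM in WT VEH, but to 1837 to 3607 CPM in RH MET and 2041 to 2272 CPM in RH VEH. The sum was thus lower with metformin in WT, where the groups did not overlap, and had a higher median with it in RH (2781 against 2210 CPM), where they did. 3 members were lower at an unadjusted p under 0.05 (0.747% of all genes were), namely Iglc1, Cd22 (−0.57 ± 0.195) and Rag1 (−0.91 ± 0.342), the recombinase of antigen receptor genes. Iglc1, the lambda 1 light chain constant region, stood at 274, 344 and 109 CPM in WT VEH, 44.9, 39.4 and 52.3 in WT MET, 39.8, 33.1 and 88.6 in RH VEH, and 52.6, 20.1 and 24.5 in RH MET (−1.56 ± 0.397). WT VEH 1 and WT VEH 2 were far above the rest, and WT VEH 3 and RH VEH 3 came next. The lambda variable and joining segments Iglv1 (−1.41 ± 0.432) and Iglj1 (−2.10 ± 0.479), chosen after their values were seen, were also highest in WT VEH. Igkc, the kappa constant region, stood at 760 to 1297 CPM and 608 to 1134 CPM (−0.02 ± 0.167). Over all 177 tested immunoglobulin segments 78 were positive and 99 negative, with 6 and 8 at an unadjusted p under 0.05. Over all genes tested these shares were 0.773% higher and 0.747% lower.

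**Figure D4:**
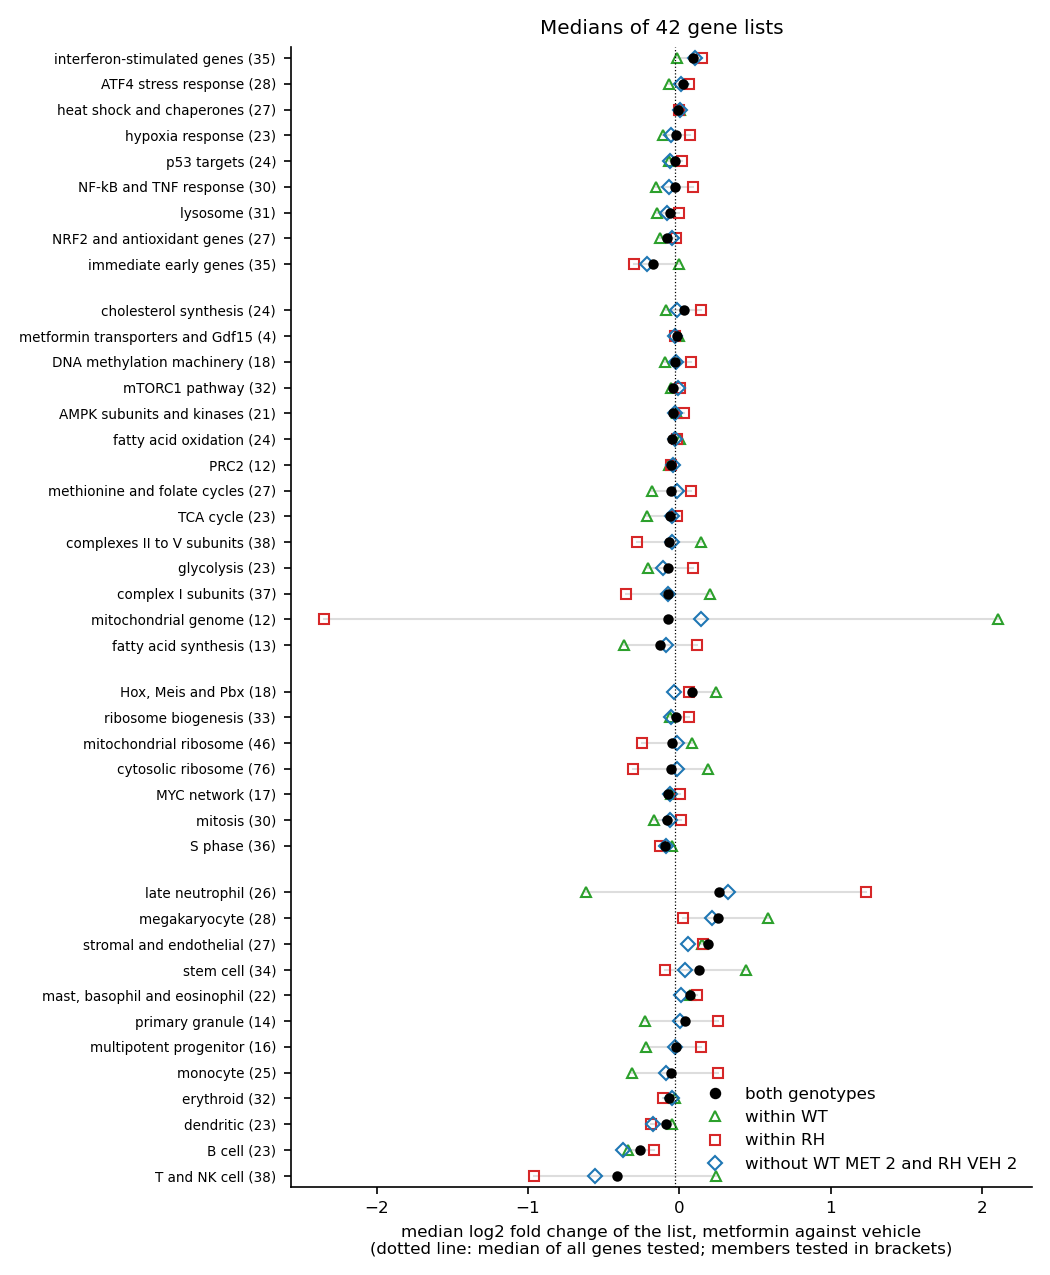
Median log2 fold change (x axis) of 42 gene lists for metformin against vehicle over both genotypes (black), within WT (green triangle), within RH (red square) and without WT MET 2 and RH VEH 2 (blue diamond); the number of members tested is in brackets. Black points stay within −0.41 to 0.26, while WT and RH fall on opposite sides for the late neutrophil, T and NK cell, complex I, ribosome and mitochondrial genome lists.

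The 2 genotypes gave opposite signs for most genes. Fitted apart, with no library in common, the WT and RH log2 fold changes had a Pearson r of −0.495 and a Spearman rho of −0.476 across the 11784 genes with a mean of at least 1 log2 CPM, and 31.6% of them had the same sign in both. Genes are not independent replicates, and each genotype holds 1 of the 2 mitochondria-rich libraries, in opposite arms. Without WT MET 2 and RH VEH 2, r was −0.111 and 41.6% had the same sign. The 2 library sets compared in the same way gave r = −0.0937 and 42.6%. Mitochondrial genome genes show the largest such split, with a median of 2.11 in WT and −2.34 in RH, and −0.08 over both.

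Tested within a genotype, 672 genes (4.48%) had an unadjusted p under 0.05 in WT and 377 (2.51%) in RH, with 0 called in either. The difference between the 2 effects had an unadjusted p under 0.05 for 947 genes (6.31%), again with 0 called. The leading genes lie with the minority of same-signed genes by choice, and 23.1% of all genes tested had the same sign in both genotypes and both sets. Their genotypes can still differ in size. Mir17hg, Wdtc1 (a substrate receptor of a ubiquitin ligase, −0.24 and −0.22) and Socs3 (−0.76 and −0.78) had nearly the same value in WT and RH, while Id1 had 1.37 ± 0.347 in WT and 0.64 ± 0.345 in RH (unadjusted p of the difference 0.161). Gapdh, often used as a reference, was at 13.7 to 21.3 CPM in MET and at 13.2 to 173 CPM in VEH (−1.0 ± 0.638), as RH VEH 1 and RH VEH 3 stood at 173 and 70.9 CPM. The sources used here do not say how reads shared with its many pseudogenes were counted.

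**Figure D5:**
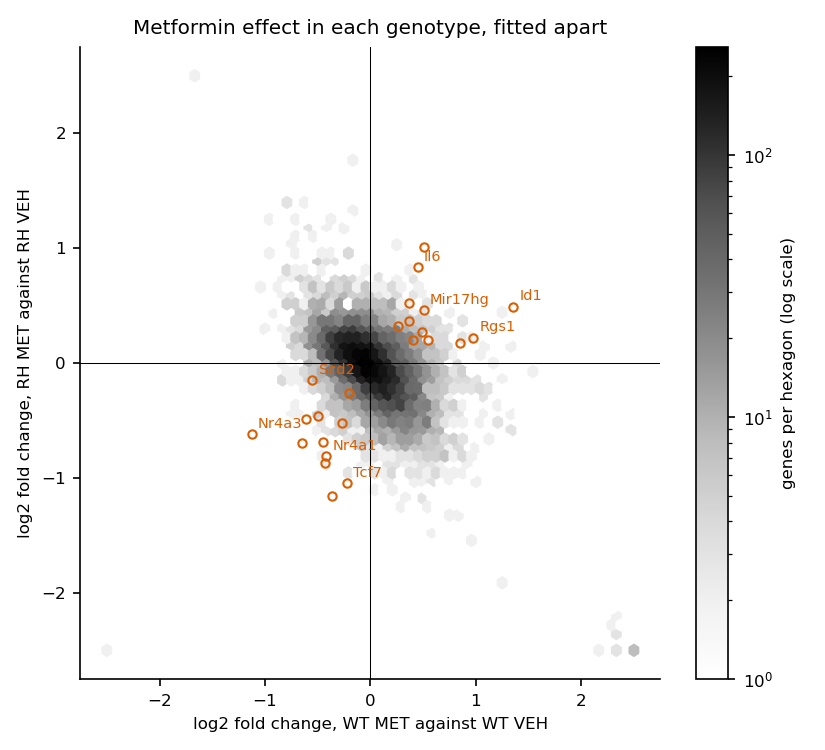
Log2 fold change of metformin against vehicle in WT (x axis) and RH (y axis), fitted apart, for 11784 genes with a mean of at least 1 log2 CPM (grey hexagons, log colour scale; values beyond 2.5 are drawn at the edge) and the 24 leading genes (orange). The cloud slopes down from left to right, with 31.6% of genes on the same side of 0 in both, and the leading genes lie in the 2 quadrants of equal sign, as their rule asks.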

How the data were processed

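The authors deposited unnormalized whole-number read counts for 54532 gene IDs. The submitters' processing notes name mm10, HTSeq 0.6.1 and STAR 2.5 but give neither their order nor settings. The deposited table also gives a gene length, which was not used. Counts came from the table of 12 libraries. A smaller table repeats 6 of its columns, and 2 further columns there were not used. Library set 1 is the 6 libraries in both tables: WT VEH 1, WT VEH 2, WT MET 1, RH VEH 1, RH MET 1 and RH MET 2. Set 2 is the other 6, with WT MET 2 and RH VEH 2 among them. Some groups therefore have 1 library in a set, and the sets are not alike in make-up. Library numbers are column numbers, and for 7 columns the group is known but not the exact sample.

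edgeR 4.0.16 (R 4.3.3; TMM, filterByExpr, robust quasi-likelihood) was fitted to the 12 libraries with genotype, library set and treatment as terms. Genes were called at a Benjamini-Hochberg adjusted p under 0.05. 1 CPM equalled 17.2 to 24.3 counts in most libraries but 10.5 in WT MET 2 and 8.82 in RH VEH 2, which limits precision for low genes. Levels are CPM with TMM factors. Alternatives used limma 3.58.1 and DESeq2 1.42.0, other scalings, filters and terms, and fewer libraries. The fit was also run on simulated counts, which had the same spread for every gene and no genotype or library set effects. That run does not show how the fit performs on these data.

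Leading genes were up to 12 per direction by smallest p, with a mean of at least 1 log2 CPM, the same sign in both genotypes and both sets, and no clone, predicted, pseudogene, histone, receptor segment or mitochondrial-genome symbols. Of each of 42 lists the 2 members of smallest p were named, beside a panel of metformin, Dnmt3a and reference genes and up to 8 genes per direction without overlap between the arms. Members and lists were chosen with earlier results of these data known. Some genes of these lists and the panel are not reported here.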

Additional observations from a re-analysis of the deposited data

Results flagged for a closer look

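In 86 checks of single values within an arm of 6 libraries, 8 had a lowest or highest library whose gap to the nearest other exceeded Dixon's critical share of the arm's range; chance alone gives about 1 in 20. RH VEH 2 accounted for 3 of them. Its total of 13359583 counts was below the other vehicle libraries (17459826 to 19420425), its mitochondrial share of 40.82% was above theirs (1.569% to 3.845%), and its Trmt10a level of 7.486 CPM was below theirs (10.71 to 11.95 CPM). WT MET 2 accounted for 2, with a mitochondrial share of 33.31% above the other metformin libraries (2.255% to 4.325%) and Tmem14a at 1.051 CPM below them (1.686 to 1.807 CPM). Both of these levels lie on the side away from the other arm, so the lack of overlap for Trmt10a and Tmem14a does not rest on them. The log2 fold changes of these 2 genes do include the extreme values.

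The other 3 came from libraries without a high mitochondrial share. Cd83 stood at 11.77 CPM in WT VEH 1, against 4.878 to 6.858 CPM in the other vehicle libraries. Clec2d stood at 26.45 CPM in WT MET 3, against 11.97 to 16.26 CPM in the other metformin libraries. Nr4a3 stood at 4.371 CPM in WT MET 1, against 0.636 to 1.049 CPM in the other metformin libraries.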

How the results depend on the processing

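Over 33 alternatives, 28 of them planned, the 24 leading genes kept their sign in all, which their rule favours, and 17 were called in at least 1. Most of these 17 were called in 1 alternative only. A single fit, voom quality weights without WT MET 2 and RH VEH 2, called 484 of 15325 genes. The leading genes were chosen by smallest p in these same data, so such calls are not separate evidence. Of 42 lists 2 kept the sign of their median in all (B cell and interferon-stimulated genes) and 40 did not in some. The interferon-stimulated median fell to 0.005 at its lowest. Within WT in the fit of all 12 libraries, which is not among these alternatives, it was −0.01. The count of called genes, 0 with edgeR, was 54 with no filter on low counts (27530 genes tested), 4 with voom quality weights and 1 in library set 1 alone. Genes at an unadjusted p under 0.05, 228 with edgeR, numbered 630, 2416 and 581 in these fits, 510 without WT MET 2 and RH VEH 2, 81 in set 2 alone and 384 in WT alone. Leaving out each library in turn called 0 genes and gave 182 (without WT VEH 1) to 500 (without RH VEH 2). Alternatives chosen after seeing the data gave 496 with the mitochondrial share as a covariate, 773 without the 4 libraries of number 3, and, without WT MET 2 and RH VEH 2, 484 called and 3605 at that p with voom quality weights, and 7 and 521 with DESeq2. Among genes at that p, 116 higher and 112 lower became 114 and 40 under library totals alone, and 148 and 90 with mitochondrial genes left out. Fitted alone, WT gave 384 genes in place of 672 and RH 219 in place of 377. The cause of these differences was not tested. The metformin minus vehicle difference in mitochondrial share (−0.957 points) was 0.330 without WT MET 2 and RH VEH 2, and −5.96 to 5.33 with each library left out; it was positive without WT MET 1 (1.29), WT MET 3 (1.80) or RH VEH 2 (5.33). Depth limits genes near 1 CPM.

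With the column number as a replicate block in place of the library set, 0 genes were called and 268 had an unadjusted p under 0.05. Deviations of same-numbered libraries correlated at −0.0133, 0.0615 and 0.336 in WT and at 0.0980, 0.103 and 0.333 in RH, so not every pair exceeded the level of 0.1 taken to show pairing. Number 3 matched itself best in both genotypes, and its 4 libraries share high stromal levels; what they have in common is not given by the labels.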

Other observations

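Long noncoding genes leaned the other way from protein-coding ones. Of 994 tested, 553 had positive and 441 negative values, with a median of 0.05, and 19 were higher and 4 lower at an unadjusted p under 0.05. Protein-coding genes had 5042 positive and 7514 negative values, a median of −0.03, and 74 higher and 94 lower at that p. Over all genes tested 0.773% were higher and 0.747% lower at that p. Positive values made up 55.6% of long noncoding, 40.2% of protein-coding and 41.8% of all genes tested. The difference between the classes was not tested. Stromal and endothelial genes had 16 of 27 positive values and a median of 0.19, or 0.06 without WT MET 2 and RH VEH 2. Their summed level was 766 to 1192 CPM in the 4 libraries of number 3 and 139 to 398 CPM in the other 8.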
